A study of Mus musculus with 6 samples.

Results

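The genes described here are 6 podocyte genes, Nphs1, Podxl, Synpo, Wt1, Ptpro and Cd2ap, taken by gene symbol from the 24532 genes of the deposited table. Each was counted in all 6 libraries of a bulk RNA sequencing study of kidney and ureter from newborn (PN1) mice. The kidney groups were 2 Ahnak KO and 2 wild-type (WT) libraries, and the ureter groups were 1 Ahnak KO and 1 WT library. The KO mice carry a disrupted exon 5 of Ahnak, which encodes a very large scaffold protein, and the methods give 2 to 4 kidneys or ureters for RNA without stating how many went into each library. The ureter samples have titles of the kidney series and a source label of ureter, and their marker genes followed the source label, as given below.

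Podocytes are the epithelial cells that wrap the capillaries of the glomerulus, the filter of the kidney. Their interlocking foot processes are bridged by the slit diaphragm, which retains plasma proteins. Nphs1 encodes nephrin, the adhesion protein that spans the slit, and Cd2ap encodes an adaptor that links nephrin to actin. Podxl encodes podocalyxin, a negatively charged sialomucin of the podocyte surface that is also found on blood vessels, and Ptpro encodes a receptor tyrosine phosphatase of the podocyte surface (GLEPP1). Synpo encodes synaptopodin, an actin-associated protein of foot processes that is also found in neurons. Wt1 encodes a zinc finger transcription factor of podocytes and nephron progenitors that is also found in mesothelium. The ureter has no glomeruli, so it served as the tissue against which the kidney levels could be read. Whole tissue was sequenced, so fewer podocytes and less RNA per podocyte cannot be told apart.

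The genes are spread over the mouse genome, with Synpo placed where its values are given. In GRCm38 with GENCODE M21, Nphs1 is at chr7:30458315-30487223 on the plus strand, Podxl at chr6:31519488-31563981 on the minus strand, Wt1 at chr2:105126529-105173616 on the plus strand, Ptpro at chr6:137252319-137463233 on the plus strand and Cd2ap at chr17:42792951-42876665 on the minus strand. The antisense gene Nphs1os overlaps Nphs1 and was listed at 0 counts in all 6 libraries.

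Of the 6 genes, Nphs1, Ptpro and Cd2ap were matched in the RefSeq promoter sequences (GRCm38.p6), and Podxl, Synpo and Wt1 were not. Ptpro and Cd2ap are shown because they ended at opposite sides of the tissue comparison, one nearly absent from ureter and one with a ureter level near that in kidney. Starts here are those of the RefSeq promoter sequences, and most of the Cd2ap window lies inside the GENCODE span of the gene given above. The windows are the 250 bases before these starts, at chr6:137252049-137252298 (plus strand) for Ptpro and chr17:42876425-42876674 (minus strand) for Cd2ap. They read as follows, 5′ to 3′, with each CpG dinucleotide in capitals.
Ptpro: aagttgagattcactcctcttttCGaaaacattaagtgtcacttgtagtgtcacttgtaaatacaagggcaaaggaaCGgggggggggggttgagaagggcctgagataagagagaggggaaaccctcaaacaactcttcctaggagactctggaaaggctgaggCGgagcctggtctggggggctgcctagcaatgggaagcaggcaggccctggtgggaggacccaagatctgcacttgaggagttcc
Cd2ap: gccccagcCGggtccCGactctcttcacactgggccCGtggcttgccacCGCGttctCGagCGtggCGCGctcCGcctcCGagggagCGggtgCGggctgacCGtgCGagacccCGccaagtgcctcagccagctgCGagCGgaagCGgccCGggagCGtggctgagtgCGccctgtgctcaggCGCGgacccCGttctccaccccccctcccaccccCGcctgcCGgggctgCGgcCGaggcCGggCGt
The Ptpro window held 3 CpG and was 53.6% G or C, and the Cd2ap window held 31 CpG and was 76.4% G or C. Fewer CpG than in Ptpro were found in 29.0% of the 32851 promoters of the table, and fewer than in Cd2ap in 94.8%. The window of Nphs1 (chr7:30459808-30460057) held 5 CpG, with 44.4% of promoters below it, and lies in the 5′ UTR of another annotated transcript. 4 short motifs were searched on both strands of the same 250 bases: GCGTGGG (WT1; in 4.3% of all promoters), TAATTA (LMX1B; 4.84%), CAGCTG (the E-box of TCF21; 13.0%) and GTAAACA (forkhead; 3.17%). 1 CAGCTG was found in Cd2ap, and no other match was found in the 3 windows.

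The deposited counts summed to between 55744703 and 66095616 in the kidney libraries, to 36410246 in the Ahnak KO ureter and to 54985927 in the WT ureter. A floor of 3 counts per library stood for 0.0421 to 0.0505 CPM in kidney, 0.101 CPM in the Ahnak KO ureter and 0.0583 CPM in the WT ureter, where CPM is the count brought to a common depth with TMM factors. The ureter of Ahnak KO mice also stood apart in Rn45s, the ribosomal precursor transcript, which took 8.06% of its counts against 0.496% to 0.632% in the other 5 libraries. Kidney Ahnak KO replicate 1 differed from the other libraries in the X inactivation transcript Xist, at 2916 CPM against 0.354 to 0.699 CPM, and in 4 Y chromosome genes, which were listed at 0 counts there. Ahnak itself stood at 139 and 130 CPM in the Ahnak KO kidneys, 183 and 189 CPM in the WT kidneys, 635 CPM in the Ahnak KO ureter and 727 CPM in the WT ureter. It was lower in both Ahnak KO kidneys, with a log2 difference of -0.47 (standard error 0.0961, adjusted p = 1.0, edgeR's quasi-likelihood test). Most of the Ahnak signal was thus still counted in the libraries labelled Ahnak KO, and the gene-level counts do not show exon 5, so they do not check the disrupted exon. Urothelial markers summed to 56.1 to 63.5 CPM in kidney and 6663 to 7515 CPM in ureter, and 6 of 6 markers of the loop of Henle, distal tubule and collecting duct were listed at 0 in both ureters.

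All 6 podocyte genes were well counted in every kidney library. On the length-corrected TPM scale, where levels of different genes can be set side by side, Wt1 was highest at 149.7 ± 9.30 TPM (SD, n = 4). It overlapped Podxl at 139.8 ± 10.5 TPM (SD, n = 4). Cd2ap followed at 93.8 ± 5.07 TPM (SD, n = 4), and Synpo at 25.8 ± 4.32 TPM (SD, n = 4), each apart from its neighbours. Nphs1 at 16.01 ± 3.42 TPM (SD, n = 4) and Ptpro at 12.4 ± 1.62 TPM (SD, n = 4) overlapped at the lower end. In ureter the order was different: Cd2ap came first with a mean of 93.1 TPM over 2 libraries, followed by Synpo at 21.3, Podxl at 12.5, Wt1 at 3.30, Ptpro at 0.282 and Nphs1 at 0 TPM, and no neighbours overlapped. Together the 6 genes summed to 421.7 to 478.3 TPM in kidney and to 121.9 and 139.0 TPM in the Ahnak KO and WT ureter. Cd2ap made up 20.4% to 22.9% of that sum in kidney and 67.3% and 74.9% in ureter, while the share of Wt1 was 33.3% to 35.0% in kidney and 3.65% and 1.54% in ureter.

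**Figure D1:**
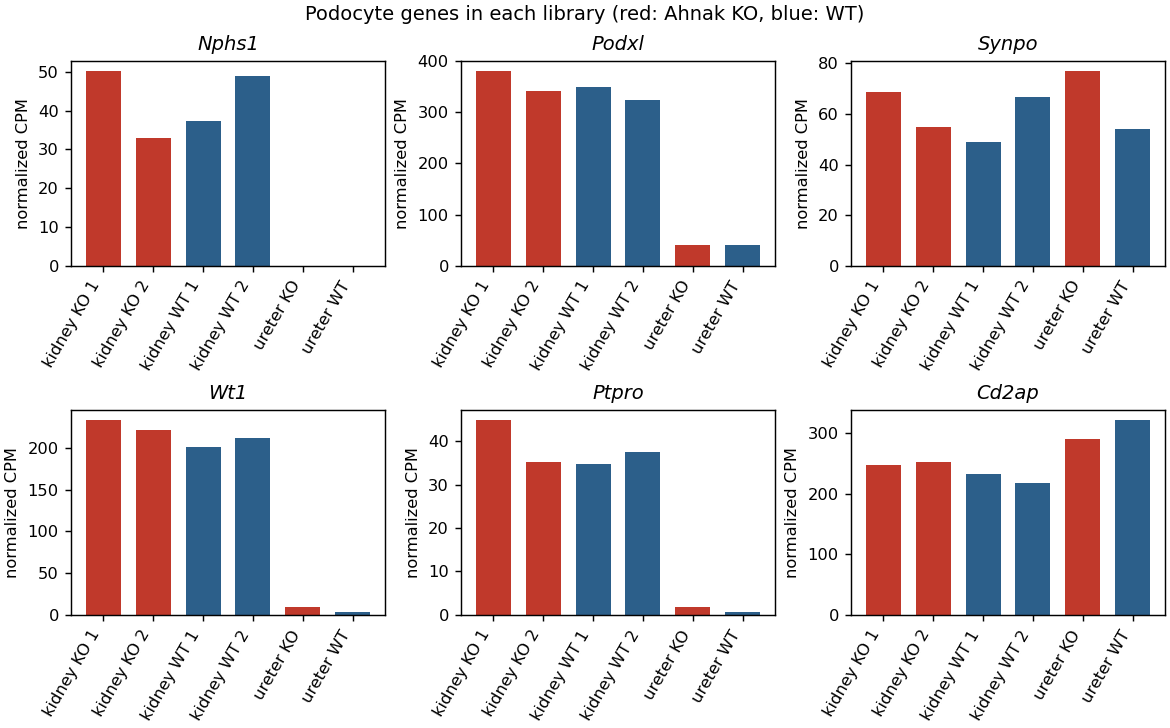
Normalized CPM of each podocyte gene (vertical axes from 0) in the 6 libraries, 1 bar for each library, red for Ahnak KO and blue for WT. Nphs1, Podxl, Wt1 and Ptpro stood higher in all 4 kidney libraries than in both ureters, Synpo overlapped, and Cd2ap was highest in the ureters on this scale, while its mean TPM was 93.8 in kidney and 93.1 in ureter.

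To examine which of these genes set kidney apart from ureter, the tissues were compared over all 6 libraries with genotype in the model. Nphs1, Podxl, Wt1 and Ptpro were higher in kidney. Synpo was not told apart between the tissues. Cd2ap was slightly higher in ureter in the main test, a call that most other settings did not keep. With 4 of 6 podocyte genes called higher in kidney, the background was 23.7% of the 16873 genes tested, and with 1 of 6 called higher in ureter it was 21.4%. At an unadjusted p under 0.05 in edgeR, 5 of the 6 genes passed, beside 52.8% of all genes tested. The median log2 difference, kidney minus ureter, was 4.12 over the 6 genes and 0.08 over all genes tested. All 4 kidney libraries stood above both ureters for those 4 genes, as did 32.8% of all genes tested, and Cd2ap stood below both ureters in all 4, as did 28.1% of all genes tested.

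Among the surface and slit diaphragm proteins, nephrin gave the sharpest contrast. Nphs1 (gene number 54631) had 3040 and 1962 counts in the Ahnak KO kidneys, 2654 and 2987 in the WT kidneys and 0 in both ureters, or 50.3, 33.0, 37.3 and 49.0 CPM against 0. It was at least 420-fold higher in kidney, computed against a floor of 3 counts in the shallower ureter library (adjusted p = 7.03e-05, edgeR's quasi-likelihood test). Of the genes with a mean of at least 1 CPM in kidney, 2.25% were listed at 0 in both ureters, and of the 5787 genes with at least as high a mean in kidney as Nphs1, 37 (0.639%) were. Podxl (27205) had 381 and 341 CPM in the Ahnak KO kidneys, 350 and 324 CPM in the WT kidneys, 39.8 CPM in the Ahnak KO ureter and 41.4 CPM in the WT ureter. Podxl was therefore clearly present in ureter, at 11.6% of its mean kidney level, and its log2 difference was 3.10 (standard error 0.121, adjusted p = 1.59e-05, edgeR's quasi-likelihood test). Endothelial markers, which like Podxl belong to blood vessels, summed to 524.6 to 667.3 CPM in kidney and 599.9 and 641.1 CPM in ureter, and 7 of 7 were counted in both ureters. Their part in the ureter level of Podxl was not tested. Ptpro (19277) had 44.9 and 35.1 CPM in the Ahnak KO kidneys, 34.8 and 37.6 CPM in the WT kidneys, 1.85 CPM in the Ahnak KO ureter and 0.563 CPM in the WT ureter. The ureter values of Ptpro rest on 55 and 29 counts, 3.17% of its kidney mean in CPM, and its log2 difference was 5.13 (standard error 0.419, adjusted p = 0.000215, edgeR's quasi-likelihood test). It was 5.999 without the Ahnak KO ureter, 4.44 without the WT ureter and 2.62 with limma on log2(FPKM + 1), and passed the test in each.

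Wt1 (22431), the transcription factor among the 6, had 233 and 221 CPM in the Ahnak KO kidneys, 201 and 212 CPM in the WT kidneys, 9.01 CPM in the Ahnak KO ureter and 3.81 CPM in the WT ureter. Its ureter level was 2.95% of the kidney mean and its log2 difference was 5.17 (standard error 0.303, adjusted p = 6.40e-05, edgeR's quasi-likelihood test), or 5.76 without the Ahnak KO ureter and 4.66 without the WT ureter. Its neighbour Wt1os, an antisense RNA gene that lies 18 bases from the annotated Wt1 gene, was counted 1111 to 1545 times in the kidney libraries and listed at 0 in both ureters, at least 212-fold higher in kidney. The ureters thus held 268 and 196 counts of Wt1 with no count of Wt1os. Markers of other cell types in which Wt1 is found were also read in both tissues. The mesothelial list summed to 38.7 to 47.5 CPM in kidney and 347.7 and 321.3 CPM in the Ahnak KO and WT ureter, of which Upk3b, a uroplakin gene like several urothelial markers, made up 317 and 288 CPM. Without Upk3b the sums were 34.8 to 43.4 CPM in kidney and 30.7 and 33.4 CPM in ureter. Gpm6a was at 10.7% of its kidney mean in ureter, Nkain4 at 127% and Msln at 410%. Lrrn4 and Bnc1 were low in kidney as well, with means of 0.127 and 0.082 CPM. They were listed at 0 in the WT ureter and stood at 1.75 and 0.269 CPM in the Ahnak KO ureter. The nephron progenitor list summed to 307.4 to 343.3 CPM in kidney and 92.0 and 111.5 CPM in ureter, of which Osr1 made up 69.6 and 87.0 CPM. Without Osr1 the sums were 292.8 to 323.7 CPM in kidney and 22.4 and 24.6 CPM in ureter. In ureter Cited1 was at 4.81%, Eya1 at 1.54% and Six2 at 0.485% of the kidney mean, with Six2 listed at 0 in the Ahnak KO ureter. Their part in the level of Wt1 was not tested.

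The actin-linked pair behaved differently. Synpo (104027; GRCm38 chr18:60593973-60660142, minus strand) had 68.7 and 55.0 CPM in the Ahnak KO kidneys, 49.0 and 66.7 CPM in the WT kidneys, 77.1 CPM in the Ahnak KO ureter and 54.1 CPM in the WT ureter. The tissues overlapped, and the log2 difference of -0.12 (standard error 0.179, adjusted p = 0.629, edgeR's quasi-likelihood test) turned to 0.18 with library size alone as the scaling. Cd2ap (12488) had 247 and 252.5 CPM in the Ahnak KO kidneys, 233 and 218 CPM in the WT kidneys, 290 CPM in the Ahnak KO ureter and 322 CPM in the WT ureter. In ureter it was 129% of the kidney mean in CPM, though 93.1 against 93.8 in TPM, with a log2 difference of -0.37 (standard error 0.105, adjusted p = 0.0304, edgeR's quasi-likelihood test). That call did not hold in 10 of 18 other settings, with adjusted p from 0.00138 to 0.744, and with library size alone the difference was -0.08 (adjusted p = 0.630). Among those 10, the call was lost when any single kidney library was left out, with differences of -0.40 to -0.33 and adjusted p of 0.0527 to 0.088, and without the WT ureter (-0.21, adjusted p = 0.228). The calls of Nphs1, Podxl, Wt1 and Ptpro held in all 18 settings.

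**Figure D2:**
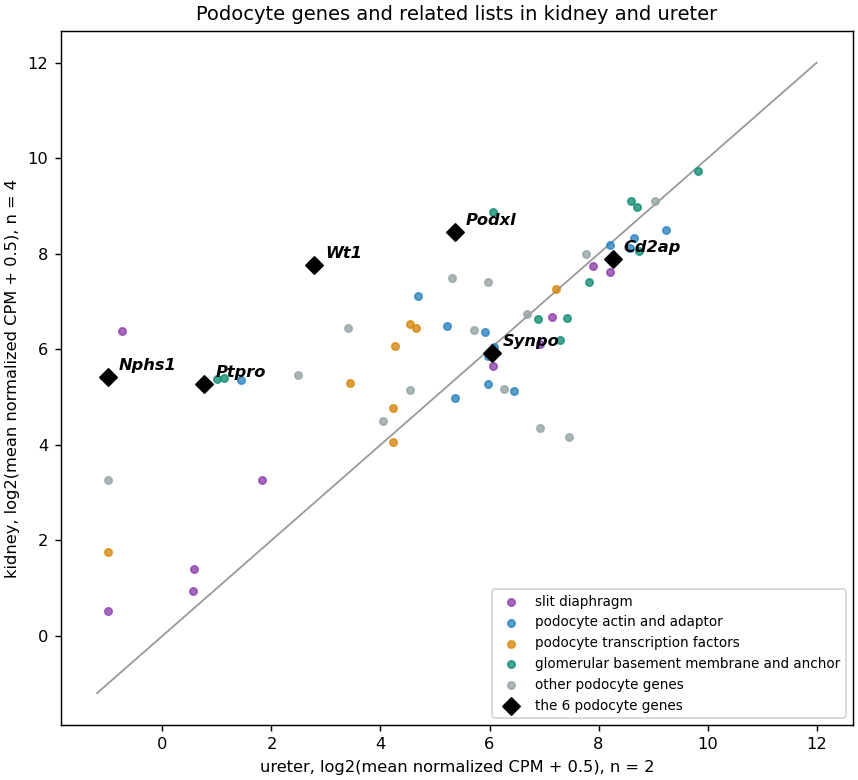
Mean level in ureter (horizontal, 2 libraries) against mean level in kidney (vertical, 4 libraries), both as log2 of mean normalized CPM plus 0.5, for the 6 podocyte genes (black diamonds) and 57 genes of 5 related lists (coloured points), with a line of equal levels. Nphs1 sits at the left edge with a ureter mean of 0 CPM, Wt1, Ptpro and Podxl lie above the line, and Synpo and Cd2ap lie close to it.

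The other genes of the podocyte were read from 5 lists by role, with 57 genes in all. Of these, 24 were called higher in kidney and 15 higher in ureter, with a median log2 difference of 0.28 beside 0.08 over all genes tested. The shares over all genes, 23.7% higher in kidney and 21.4% higher in ureter, are the background for these counts and for those of each list below, and several lists lie near them. The slit diaphragm list had 3 of 10 genes higher in kidney and 3 higher in ureter. Kirrel2, a nephrin-like protein, was at least 9.29-fold higher in kidney, and Magi2, a scaffold under the slit, had a log2 difference of 1.59 (standard error 0.246). The polarity genes Pard3 (-0.83, standard error 0.144) and Prkci (-0.48, standard error 0.106) and the protocadherin Fat1 (-0.56, standard error 0.176) were higher in ureter on the same scale.

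Among podocyte transcription factors, 6 of 8 were called higher in kidney and none higher in ureter. Lmx1b was at least 28.5-fold higher and listed at 0 in both ureters. Log2 differences were 2.02 (standard error 0.181) for Dach1, 1.84 (0.128) for Foxc1 and 1.83 (0.198) for Foxc2. Tcf21 at 0.05 (standard error 0.149) and Foxd1 at -0.18 (0.166) were not told apart. In the list of glomerular basement membrane and anchoring genes, 4 of 12 were higher in kidney and 4 in ureter. The collagen chains Col4a3 and Col4a4 stood 4.61 (standard error 0.277) and 4.82 (0.287) higher in kidney on the log2 scale, whereas Col4a5, which also forms networks outside the glomerulus, had a log2 difference of -0.77 (0.0988). Npnt, which encodes the integrin ligand nephronectin, stood 2.82 higher in kidney (0.118), and the integrin chain gene Itga3 had a log2 difference of -1.10 (0.144).

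The list of actin and adaptor genes had 4 of 13 genes higher in kidney and 5 in ureter, with a median log2 difference of -0.10. Rhpn1, which encodes rhophilin-1, stood 4.19 higher in kidney (standard error 0.202) and Arhgap24, a GTPase-activating protein, 2.44 higher (0.159). The formin gene Inf2 (-1.34, standard error 0.155) and Actn4 (-0.73, 0.144), which encodes alpha-actinin-4, were higher in ureter. Of 14 other podocyte genes, 7 were higher in kidney and 3 in ureter. Clic5, a chloride channel family protein of foot processes, had a log2 difference of 3.14 (standard error 0.323) and the guidance receptor Robo2 one of 3.11 (0.185). Tdrd5, a tudor domain gene, was listed at 0 in both ureters and was at least 90.7-fold higher in kidney. Pla2r1, the phospholipase A2 receptor, had a log2 difference of -3.32 (standard error 0.172) and Plce1, a phospholipase C, one of -2.59 (0.125), so these members of the list were lower in kidney than in ureter.

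Markers of the other cell types gave the setting for these values. The glomerular endothelial list had 5 of 8 genes higher in kidney and 0 in ureter (median log2 difference 1.25), the mesangial list 4 and 2 of 7 (0.65) and the parietal epithelial list 4 and 1 of 5 (3.52). The nephron progenitor list had 5 higher in kidney and 2 higher in ureter of 7 (4.26), the general endothelial list 2 and 1 of 7 (-0.06), the mesothelial list 1 and 2 of 5 tested (-2.01) and the macrophage and lymphocyte list 1 and 1 of 5 tested. The proximal tubule list had 5 of 6 higher in kidney, 3 of them listed at 0 in both ureters, and 1 higher in ureter. The list of loop, distal tubule and collecting duct had 6 of 6 higher in kidney, while the urothelial and smooth muscle lists each had 7 of 7 higher in ureter (-6.93 and -3.38). Genes on the glomerular endothelial, mesangial and parietal epithelial lists were thus also mostly called higher in kidney, as were 4 of the 6 podocyte genes.

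To look for differences by genotype, the kidneys labelled Ahnak KO and WT were compared with 2 libraries each. None of the 6 podocyte genes was called in either direction. The background was 0.0% of 16481 genes called higher and 0.0121% (2 genes) called lower in Ahnak KO kidney, and DESeq2 called 25 genes higher and 19 lower, none of them a podocyte gene of the 6. At an unadjusted p under 0.05, edgeR had 0 of the 6 genes and 227 of all genes (1.38%). The 57 genes of the related lists also held no call in this comparison, and none of them had an unadjusted p under 0.05 in edgeR. With 2 libraries a genotype, the absence of a call does not show equal levels.

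The kidney differences were small for each gene. Wt1 was 227 ± 8.51 CPM (SD, n = 2) in Ahnak KO and 206 ± 7.73 CPM (SD, n = 2) in WT kidneys, a log2 difference of 0.14 (standard error 0.0990, adjusted p = 1.0, edgeR's quasi-likelihood test). Cd2ap was 249.7 ± 3.99 CPM (SD, n = 2) in Ahnak KO and 225 ± 10.2 CPM (SD, n = 2) in WT kidneys, a log2 difference of 0.15 (standard error 0.0994, adjusted p = 1.0 by the same edgeR test). Both Ahnak KO libraries stood above both WT libraries for these genes, as in 12.8% of all genes tested. For Podxl the log2 difference was 0.10 (standard error 0.108), for Synpo 0.10 (0.192), for Ptpro 0.15 (0.159) and for Nphs1 -0.05 (0.236), each with an adjusted p of 1.0 in edgeR and with genotypes that overlapped. The sign of the difference depended on single libraries for 3 genes. Leaving out 1 library at a time gave -0.38 to 0.22 for Nphs1, -0.11 to 0.34 for Synpo and -0.04 to 0.31 for Ptpro. Synpo and Ptpro were below 0 without Ahnak KO replicate 1, at -0.07 and -0.04, and Synpo also without WT replicate 1, at -0.11. Nphs1 was above 0 without Ahnak KO replicate 2, at 0.22, and without WT replicate 2, at 0.16.

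Within a genotype, nephrin and synaptopodin varied more than between genotypes. Nphs1 differed between the Ahnak KO replicates by 0.60 on the log2 scale and between the WT replicates by -0.39, replicate 1 minus replicate 2. For Synpo these values were 0.32 and -0.44. Ahnak KO replicate 1 and WT replicate 2 were the higher pair for both genes. The spread of Podxl, Wt1 and Cd2ap was narrower, the highest kidney library being 1.16 to 1.17 times the lowest, against 1.52 times for Nphs1, 1.40 times for Synpo and 1.29 times for Ptpro. Proximal tubule markers had medians of 0.31, -0.31, -0.31 and 0.36 around their kidney means on the log2 scale in Ahnak KO 1, Ahnak KO 2, WT 1 and WT 2. Their summed level was 813.8 to 1165 CPM, with 6 of 6 markers counted. By the median they were higher in the same pair of libraries as Nphs1. Aqp1 on that list went the other way, at 159, 166, 172 and 132 CPM in the same order. Of the podocyte lists, slit diaphragm genes had medians of 0.11, -0.12, -0.045 and 0.10, and other podocyte genes 0.15, -0.15, -0.13 and 0.08. Podocyte transcription factors had 0.055, -0.043, -0.072 and 0.001. The lists of actin and adaptor genes and of basement membrane genes were not higher in that pair. Endothelial markers had medians of -0.002, 0.18, 0.07 and -0.19 in the same order. The part of these cell types in the spread of Nphs1 and Synpo was not tested.

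**Figure D3:**
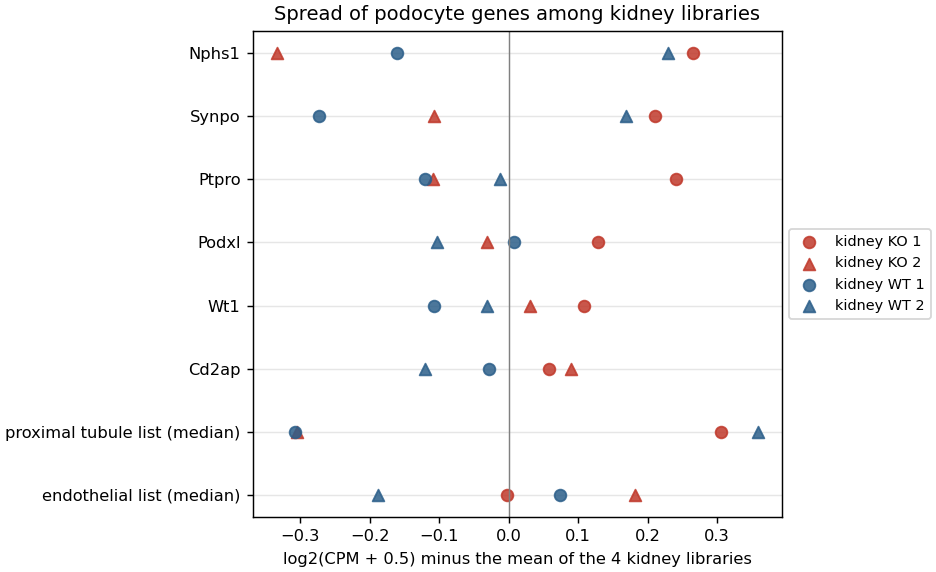
Log2 level of each gene in each kidney library, as the deviation from the mean of the 4 kidney libraries (horizontal axis), with Ahnak KO in red and WT in blue, circles for replicate 1 and triangles for replicate 2; the lower rows give the median over the proximal tubule and endothelial lists. Nphs1 and Synpo were higher in Ahnak KO 1 and WT 2, while Wt1 and Cd2ap were higher in both Ahnak KO libraries by small amounts.

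In ureter there was 1 library for each genotype, so the values below compare those libraries and genotype was not tested in ureter on its own. Wt1 and Ptpro, both low in ureter, were over 2-fold higher in the Ahnak KO ureter on the scale of CPM plus 0.5, and none of the 5 podocyte genes with at least 10 counts was over 2-fold lower. The background was 4.5% of 16117 genes higher and 5.75% lower by over 2-fold. Wt1 had 268 counts in the Ahnak KO and 196 in the WT ureter, a ratio of 2.37 after scaling (95% exact binomial interval 1.96 to 2.86, counting error only). Ptpro had 55 and 29 counts, a ratio of 3.29 (2.06 to 5.34). The ratios were 1.43 (1.35 to 1.51) for Synpo, 0.963 (0.897 to 1.03) for Podxl and 0.901 (0.878 to 0.925) for Cd2ap. Nphs1 was at 0 in both. The log2 ratios of Wt1 and Ptpro, 1.13 and 1.09, were 0.95 and 0.97 with library size alone, so that neither passed 2-fold under that scaling. With library size less Rn45s, a setting added after the data were seen, both were 1.06. The median log2 ratio of all genes compared was -0.02, and -0.20 with library size alone.

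Markers on the mesothelial and nephron progenitor lists also differed between the ureter libraries. Cited1, a nephron progenitor gene, had 153 counts in the Ahnak KO and 24 in the WT ureter, while the progenitor genes Six2 (0 and 55 counts) and Eya1 (20 and 87 counts) were higher in the WT ureter. The mesothelial gene Lrrn4 had 52 and 0 counts, Gpm6a 122 and 88 and Msln 438 and 1166. These counts are not scaled, and the Ahnak KO ureter library was the shallower one. After scaling, the ratio of Ahnak KO over WT was 11.04 for Cited1, 0.398 for Eya1, 2.40 for Gpm6a and 0.651 for Msln. The part of these markers in the ureter levels of Wt1 was not tested.

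Whether the genotype difference itself differed between tissues was tested with an interaction term. None of the 6 podocyte genes was called, beside 0.057% of 17557 genes with a larger difference in kidney and 0.0513% with a larger one in ureter. At an unadjusted p under 0.05 the share of all genes was 12.4%, and Wt1 and Ptpro were among them. The interaction, kidney minus ureter, was -1.10 for Wt1 (standard error 0.187, unadjusted p = 0.00119, adjusted p = 0.129, edgeR's quasi-likelihood test), and DESeq2 gave it an adjusted p of 0.000804. With limma on log2(FPKM + 1) it was -0.52 (adjusted p = 0.282). For Ptpro the interaction was -1.56 (standard error 0.362, adjusted p = 0.202 in edgeR), with an adjusted p of 0.0519 in DESeq2 and a value of -0.074 (adjusted p = 0.922) in limma. For Synpo it was -0.41 (0.333, adjusted p = 0.693), for Cd2ap 0.30 (0.177, adjusted p = 0.552) and for Podxl 0.16 (0.195, adjusted p = 0.830). Ptpro was at 0.217 and 0.0758 FPKM in the Ahnak KO and WT ureter, so adding 1 FPKM before the log2 flattens its ureter ratio in limma. The lone ureter libraries are assumed in the interaction fit to vary like the kidney replicates.

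**Figure D4:**
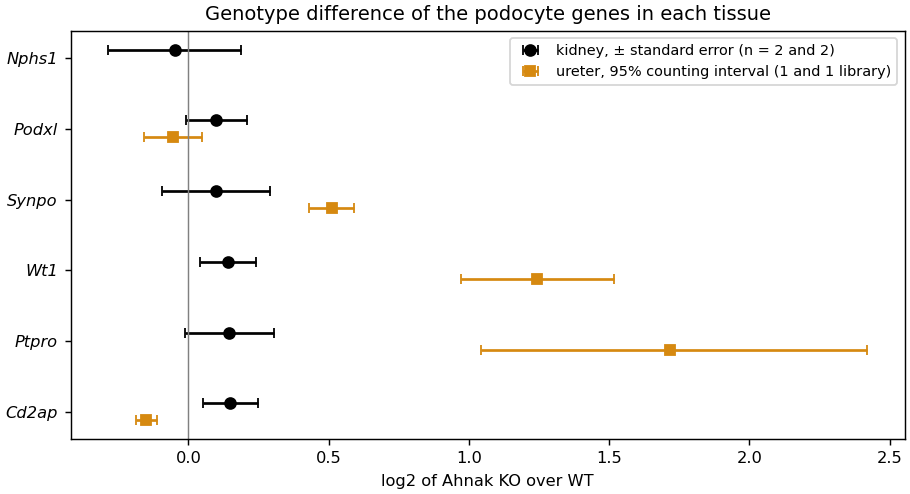
Log2 of Ahnak KO over WT (horizontal axis) for each podocyte gene, in kidney (black circles, bars of 1 standard error, 2 libraries each) and in ureter (orange squares, 95% interval of counting error, 1 library each). The kidney values lie between -0.05 and 0.15, the ureter ratios of Wt1 and Ptpro are the farthest from 0, and Nphs1 has no ureter value because it was listed at 0.

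The genes with the most similar profile over the 6 libraries, by the root mean square difference of centred log2 values among 14588 genes, also set the podocyte genes apart from one another. Ptpro ranked 7 for Wt1 (difference 0.240) and Wt1 ranked 10 for Ptpro, and Kcnj10, a potassium channel gene, ranked 1 for both (0.161 and 0.116). For Nphs1 the nearest were Scin (0.102), Erbb4 (0.111), Klk1 (0.122), Slc17a1 (0.136) and Slc22a8 (0.166), all listed at 0 in both ureters. For Podxl the nearest were Scx (0.082), Rassf10 (0.107), Phex (0.108), Aif1l (0.115) and Clrn1 (0.117). Clrn1 was listed at 0 in both ureters, with 2.89 to 3.67 CPM in kidney, while Podxl had 39.8 and 41.4 CPM in ureter. A gene at 0 has a log2 value only through the constant added to CPM, so its tissue gap follows its kidney level. The ranks of such genes for Podxl and Nphs1, and of Kcnj10 (0 CPM in the WT ureter), therefore rest partly on that constant. Synpo was closest to 1110046J04Rik, Nampt, Zfp937 and Cox7b, and Cd2ap to Kdelr1, Grb2, G3bp2, Mthfsl and Cbx7, with differences of at most 0.072. These are descriptions over 6 libraries that share the split into 4 kidney and 2 ureter samples.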

How the data were processed

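Per the labels, the authors used FastQC 0.11.7, Trimmomatic 0.38, HISAT2 2.1.0, StringTie 1.3.4b and edgeR in R 3.6.1 with mm10, while the methods name Cutadapt, STAR, Cufflinks, DESeq and GRCm39, and the study's results DEGseq. The kit was TruSeq Stranded mRNA. The authors deposited, for each gene, an estimated count (whole numbers), FPKM and TPM. Per the methods, biological replicates numbered 2, with no tissue given, and the kidney Ahnak KO libraries differ in Xist and Y chromosome genes. The animals behind each library are not given in the sources used here, so p-values measure the spread between libraries.

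Tests planned for counts were run on the estimated counts with edgeR 4.0.16 (TMM, filterByExpr, quasi-likelihood, Benjamini-Hochberg, threshold 0.05) in R 4.3.3: kidney genotype over 4 libraries, tissue with genotype, and their interaction over 6. Standard errors are the log2 change divided by the square root of F, an approximation. CPM use TMM factors over 6 libraries (0.817 to 1.08). Ureter genotypes were compared by CPM + 0.5 with a minimum of 10 counts in either library. Alternatives used DESeq2 1.42.0 and limma 3.58.1 on FPKM; Python 3.11.15 did the rest. Code was tested on simulated data. Named genes are the 6 members, Ahnak, the called genes with the largest change in each podocyte list (at most 5), and the 5 nearest profiles (mean of at least 1 CPM). Wt1os, Nphs1os, Tcf21, Foxd1, Rn45s, Xist and the marker genes of other cell types given by name were chosen after their values were seen. Members and lists were chosen with earlier results of these data known. Protein sequences were not analysed here, and some genes that this rule names are not reported here. Intervals and floors cover counting error only. Coordinates are those of mm10 (GRCm38).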

Additional observations from a re-analysis of the deposited data

Results flagged for a closer look

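Cd2ap differed in the direction of its genotype difference between tissues. In kidney both Ahnak KO libraries stood above both WT libraries (log2 difference 0.15, standard error 0.0994), and in ureter the Ahnak KO library stood below the WT library (log2 ratio -0.15, 1 library each). The interaction test did not separate them (0.30, standard error 0.177, adjusted p = 0.552, edgeR's quasi-likelihood test).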

How the results depend on the processing

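Of 278 single-gene values under other settings, 241 kept their direction and side of the threshold, 10 lost and 1 gained a call, 13 moved and 13 changed sign; the cause was not tested. In kidney, DESeq2 called 25 genes higher and 19 lower, where edgeR's main test had 0 and 2. A replicate block gave 0 lower, a crossed block (chosen after seeing the data) 1, and limma on FPKM 0 with either pseudocount. The same numbers did not pair the kidney samples (correlation of replicate differences -0.28). Leaving out 1 library gave 1 to 24 higher and 2 to 63 lower, with log2 values of -0.38 to 0.22 for Nphs1, -0.11 to 0.34 for Synpo and -0.039 to 0.31 for Ptpro. No setting called any of the 6 genes in kidney.

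Between tissues, library size alone called 6108 genes higher in kidney and 2371 higher in ureter, so 72.0% of calls were higher in kidney against 52.6% with TMM, and the median of all genes moved from 0.08 to 0.37. limma called 6256 higher in kidney with FPKM + 1 (71.7% of calls) and 2351 higher in ureter with FPKM + 0.1. The kidney libraries that share a header code with a ureter library (chosen after seeing the data) gave 2301. In these 4 settings and with Ahnak KO libraries only, 0 podocyte genes were higher in ureter, against 1 in the main test, and 0 to 1 when 1 library was left out. Synpo was 0.18 with library size alone, 0.10 with WT libraries only, 0.17 and 0.18 with limma, and -0.31 to 0.094 with 1 library left out. In levels, kidney over ureter, Synpo was -0.13 in CPM, and Cd2ap -0.076 in FPKM and -0.37 in CPM, each positive in TPM.

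For the interaction, DESeq2 called 279 genes with a larger difference in kidney and 200 in ureter, Wt1 (1 of the 6) among the latter, limma 0 and 0, and leaving out 1 library 2 to 125 and 2 to 145. In ureter, CPM + 0.1 gave 1142 genes higher and 1629 lower by over 2-fold, and FPKM + 1 gave 207 and 596. Ptpro, at 0.217 and 0.0758 FPKM in the Ahnak KO and WT ureter, could not pass 2-fold on FPKM + 1. Library size alone and FPKM + 1 each left 0 of the 6 genes over 2-fold higher, against 2. Library size without Rn45s, also added later, kept both counts within 1.5 times.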
